A study of Mus musculus with 36 samples.

Results

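Gene expression was compared in the cerebellum of 6 Pogz cKO-/- mice and 6 control mice. These 12 libraries are part of a series of 36, in which the cerebellum and hippocampus of 18 mice were sequenced, and the heterozygous cKO+/- mice were not used in the comparison given here. All mice were adults on the C57Bl/6 background, and each group held 3 males and 3 females. Controls were Pogzfl/fl mice without Cre, and cKO-/- mice were NesCre/+; Pogzfl/fl, so both groups carried floxed Pogz on both chromosomes. The Nestin promoter drives the Cre recombinase in neural progenitors, from which neurons, astrocytes and oligodendrocytes arise, while cells of other origin keep the floxed alleles intact. Every cKO-/- mouse carried NesCre and no control did, so the loss of Pogz and the presence of Cre cannot be told apart. Each library came from the bulk cerebellum of 1 animal, so that fewer cells of a type and less RNA per cell cannot be told apart. Of 24421 genes in the deposited table, the 13817 with a value above 1 CPM (reads of a gene scaled to a common library size) in at least 6 of the 12 libraries were tested.

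POGZ is a zinc finger protein that ends in a domain derived from a pogo transposase. It binds heterochromatin protein HP1 and is found with chromatin regulators such as CHD4 and ADNP, and it takes part in mitotic chromosome segregation and in transcriptional repression. De novo mutations of the human gene cause White-Sutton syndrome, with intellectual disability and autistic features. The cerebellum is made mostly of granule cells, whose axons excite the Purkinje cells, the output neurons of its cortex, together with inhibitory interneurons, Bergmann glia and other glia.

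The libraries held between 21421850 and 30812192 counts on genes. Marker genes of Purkinje and granule cells were abundant in every library, with summed levels between 12420 and 25880 CPM for 20 Purkinje cell genes and between 5852 and 11900 CPM for 20 granule cell genes. The cKO-/- animals differed among themselves. The controls and the cKO-/- animals Sample_1160 and Sample_1219 had animal numbers within a run from Sample_1120 to Sample_1219, while the cKO-/- animals Sample_936, Sample_1371, Sample_1379 and Sample_1385 lay outside it, and the labels do not say what the numbers stand for. On the first principal component, which held 39.3% of the variance, controls lay between 13.79 and 33.19, animals Sample_1160 and Sample_1219 at -0.4752 and -8.889, and the 4 cKO-/- animals outside the run between -39.68 and -20.55. Animal Sample_936 also held 4694 CPM of choroid plexus genes, against 155.6 to 183.8 CPM in controls, and 24.6 CPM of hindbrain Hox genes, against at most 0.7428 CPM in any other library. List counts below are therefore also given without Sample_936 and for Sample_1160 and Sample_1219 alone against the controls, as higher and lower genes, where either differs.

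Pogz, at 3:94837567-94883567 (GRCm38), ranged from 89.6 to 130 CPM in controls, with a median of 93.3, and from 56.7 to 73.8 CPM in cKO-/- mice, with a median of 65.1. All 6 cKO-/- libraries lay below all controls. The fitted change was -0.60 on the log2 scale (SE 0.104, edgeR adjusted p = 0.00431), and the exact permutation test over the 12 libraries gave p = 0.00216 (2-sided, 924 splits). The count covers the whole gene, including exons that the Cre does not remove, so the remaining level is not a measure of intact transcript. In a fit of the 6 controls and only Sample_1160 and Sample_1219, named the fit within the run below, the change was -0.43 and was not called (edgeR adjusted p = 0.27).

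Of the 13817 genes, 1074 (7.77%) passed an edgeR false discovery rate (FDR) of 0.05, and are named called genes below. Of these, 640 genes (4.63% of those tested) were higher and 434 (3.14%) were lower in cKO-/- mice. Without regard to the test, 625 genes (4.52%) had no overlap between the 6 libraries of each group, and 536 of the called genes were among them, 315 higher and 221 lower. Most differences were modest, with a median absolute change of 0.656 (log2). The share of higher genes was larger among larger changes. It came to 59.6% of all called genes, 66.2% of the 616 that changed over 1.5-fold, 75.2% of the 238 over 2-fold, 81.6% of the 49 over 4-fold and 90.9% of the 22 over 8-fold. The number of calls varied with the animals used. Without animal Sample_936, 603 genes were called, 572 of them among the 1074. Within the run 143 were called, 124 of them among the 1074, and with only the 4 animals outside the run 2432 were called, 1006 of them among the 1074.

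The largest increases were in genes that were close to silent in the control cerebellum, and 16 called genes went from a mean below 0.5 CPM in controls to a mean above 1 CPM in cKO-/- mice. A gene at or below 1 CPM in every control was tested only if all 6 cKO-/- libraries were above 1 CPM. Its direction and its lack of overlap were therefore fixed by the filter. This held for Gm364, Serpinb2, Ostn, Amelx, Akr1c13, Clca4a, Gm4371, Gm13544, Kank4os, 9430018G01Rik, Kcnu1 and Prlr. Serpinb2 and Akr1c13 also count in the lists of serpins and aldo-keto reductases below. Amelx, Kcnu1 and Prlr count in those of mineralised tissue, potassium channels and choroid plexus. The matching count of decreases was not taken. Several of the named genes that were close to silent, and Dach2 from a somewhat higher control level, are known mainly from other tissues. Serpinb2 encodes an inhibitor of plasminogen activators made by macrophages and skin, Ostn a peptide secreted by bone and muscle, Amelx the enamel protein amelogenin, Akr1c13 an aldo-keto reductase and Dach2 a transcriptional cofactor of muscle and eye development. The 300 bases around the annotated start of 4 called genes, from 250 bases before it to 50 after, are given below from RefSeq (GRCm38.p6), each 5′ to 3′ on the strand of its gene. They show the annotated start of genes that were close to silent in controls (Serpinb2 and Amelx) and of the steepest decrease (Myo15). Dmp1 was the gene with the smallest p among increases from a measurable control level. Where transcription started in these libraries was not tested. Capitals mark the motif TATAAA.

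Serpinb2: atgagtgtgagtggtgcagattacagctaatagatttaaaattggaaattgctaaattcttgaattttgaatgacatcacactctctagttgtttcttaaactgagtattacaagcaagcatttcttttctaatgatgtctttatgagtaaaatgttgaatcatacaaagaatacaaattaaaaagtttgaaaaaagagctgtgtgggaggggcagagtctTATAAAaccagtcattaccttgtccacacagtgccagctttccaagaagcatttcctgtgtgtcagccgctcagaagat
Amelx: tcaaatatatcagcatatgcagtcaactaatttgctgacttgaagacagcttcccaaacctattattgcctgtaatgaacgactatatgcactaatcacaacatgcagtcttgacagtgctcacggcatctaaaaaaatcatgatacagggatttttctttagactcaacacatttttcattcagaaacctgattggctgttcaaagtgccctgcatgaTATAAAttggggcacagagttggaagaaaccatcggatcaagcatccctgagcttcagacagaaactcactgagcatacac
Dmp1: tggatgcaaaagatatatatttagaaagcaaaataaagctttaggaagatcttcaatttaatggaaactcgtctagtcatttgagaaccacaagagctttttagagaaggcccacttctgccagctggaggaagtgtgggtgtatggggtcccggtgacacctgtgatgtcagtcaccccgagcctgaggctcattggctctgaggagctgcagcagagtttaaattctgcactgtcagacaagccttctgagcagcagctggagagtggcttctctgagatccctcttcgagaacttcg
Myo15: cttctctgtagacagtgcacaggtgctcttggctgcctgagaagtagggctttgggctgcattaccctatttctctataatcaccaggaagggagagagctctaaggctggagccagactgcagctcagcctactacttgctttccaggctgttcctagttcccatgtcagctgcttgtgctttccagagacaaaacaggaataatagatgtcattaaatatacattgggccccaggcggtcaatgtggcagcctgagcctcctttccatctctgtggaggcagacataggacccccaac

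These windows lie at chr1:107511173-107511472 (Serpinb2, + strand), chrX:169187160-169187459 (Amelx, - strand), chr5:104202367-104202666 (Dmp1, + strand) and chr11:60469089-60469388 (Myo15, + strand). TATAAA, searched on both strands, stood 29 bases before the annotated start of Serpinb2 and 31 bases before that of Amelx. It did not occur in the windows of Dmp1 and Myo15. It was found in 13.6% of all 32851 windows and in 6.92% of the 10741 windows that belong to tested genes. The 4 windows held 1, 3, 5 and 1 CpG in the order printed, against a median of 7 over all windows.

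Gm364 had 1 read in all 6 controls together and between 430 and 722 reads in each cKO-/- library, a ratio of rates of 3740 with an exact 95% Poisson interval from 671 to 148000 that covers counting error only. It lies on the X chromosome at X:57409149-57488771. Serpinb2 (1:107511423-107525600) ranged from 0.151 to 0.78 CPM in controls, with a median of 0.465, and from 9.77 to 23.9 CPM in cKO-/- mice, with a median of 14.3. The increase was 33.3-fold (log2 5.06, SE 0.308, edgeR adjusted p = 5.04e-07). Ostn rose 39.8-fold, from between 0.142 and 0.73 CPM, with a median of 0.332, to between 10.2 and 25.3 CPM, with a median of 15.6. Amelx rose 59.7-fold, from at most 0.159 CPM, with a median of 0.0189, to between 2.44 and 3.9 CPM, with a median of 3.01. No cKO-/- library came near the controls in these 4 genes. Dach2 (X:113297510-113836386) rose 13.1-fold, from between 1.06 and 2.72 CPM, with a median of 1.93, to between 18.2 and 31.1 CPM, with a median of 27.1. From the distribution of reads, the study reports that a short Dach2 transcript beginning inside the gene is upregulated. Counts per gene do not separate transcripts. Akr1c13 rose 33.9-fold, Clca4a 27.3-fold, Gm4371 8.24-fold and Tmem196 4.35-fold, and none of them overlapped between the groups. The unnamed transcripts 9430018G01Rik and Kank4os rose 20.9-fold and 26.1-fold. Kank4os is antisense to Kank4, and since the use of strand in the counting is not stated, reads of the pair cannot be told apart. Gm13544, chosen after its values were seen, was at 0 in all controls and held 217 to 474 reads in each cKO-/- library, at least 116.5-fold higher than a floor of 3 counts per library, and it overlaps Acvr1c. Gm364, Serpinb2, Ostn, Amelx, Dach2, Akr1c13, Kank4os, 9430018G01Rik, Gm13544 and Tmem196 were also called, in the same direction, within the run, with edgeR adjusted p between 1.3e-07 and 0.000850.

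Most tested genes of mineralised tissue were called higher. Of 12 tested genes of this list, 8 were called higher and 1 lower, with a median change of 1.36 (log2) against -0.00233 over all tested genes. Amelx is among the 8, and its direction was fixed by the filter. Dmp1 (5:104202617-104214102), an acidic matrix phosphoprotein of bone and dentin, ranged from 14.8 to 17.6 CPM in controls, with a median of 16.3, and from 45.8 to 62.5 CPM in cKO-/- mice, with a median of 53.1. The 3.28-fold increase (log2 1.71, SE 0.0796, edgeR adjusted p = 4.21e-08) had the second smallest p of all genes, after Gm364. Fbln7, a fibulin of the matrix that is found in teeth, rose 3.28-fold from between 5.18 and 7.37 CPM (median 6.23) to between 17.9 and 27.2 CPM (median 19.1). Phex, an endopeptidase that controls phosphate balance and was named after its values were seen, rose 3.21-fold. The exception was Comp, a cartilage matrix protein, which fell 5.83-fold from between 3.38 and 7.58 CPM (median 4.26) to between 0.399 and 1.24 CPM (median 0.739). None of these genes overlapped between the groups. Spp1, which encodes osteopontin, overlapped, and its 2.36-fold difference was not called without animal Sample_936 (edgeR adjusted p = 0.0606). Summed over the list, the level was between 85.84 and 105.7 CPM in controls, 161.8 and 178.3 CPM in the 2 cKO-/- animals within the run and 229.5 to 269.1 CPM in the other cKO-/- animals. Without animal Sample_936 7 of the 12 genes were called higher, and within the run 5.

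With all animals 13 of 35 tested collagen genes were called higher and 3 lower, with a median of 0.513. Without animal Sample_936 8 were higher and 3 lower, within the run 1 and 1, and with only the 4 animals outside the run 16 were higher and 4 lower. Col4a6, a chain of basement membrane collagen, rose 2.36-fold, from between 3.55 and 4.26 CPM, with a median of 4.18, to between 7.51 and 11.1 CPM, with a median of 9.7. It was called within the run (edgeR adjusted p = 0.00653). Col12a1, a fibril-associated collagen, rose 1.93-fold. Col1a2, Col3a1 and Col1a1, the main fibrillar collagens of meninges and other connective tissue, rose 1.87-, 2.33- and 2.05-fold, and within the run their changes of 0.50, 0.53 and 0.43 (log2) were not called (edgeR adjusted p = 0.0758, 0.243 and 0.316). Col27a1 fell 2.26-fold. The growth factor gene Igf2, also a gene of the meninges, ranged from 92 to 143 CPM in controls, with a median of 112, and from 160 to 321 CPM in cKO-/- mice, with a median of 278. It rose 2.22-fold (edgeR adjusted p = 0.000646) and was 1 of 3 higher genes among 16 tested genes of insulin-like growth factor signalling, of which 2 were higher within the run. With all animals 18.8% of that list was called, against 7.77% of all tested genes. Igf1, its relative, rose 1.6-fold.

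Innate immune receptors and proteases were also among the strongest increases. Tlr4 (4:66827811-66842796), the receptor for bacterial lipopolysaccharide, ranged from 1.08 to 2.65 CPM in controls, with a median of 2.14, and from 11.4 to 23.2 CPM in cKO-/- mice, with a median of 14.9. It rose 7.98-fold (SE 0.211 on the log2 scale, edgeR adjusted p = 1.65e-06). Casp1, the protease that inflammasomes activate, rose 5.66-fold from between 1.59 and 4.28 CPM (median 2.12) to between 9.15 and 18.8 CPM (median 14). Casp12, its neighbour in the caspase family, rose 2.3-fold. The groups did not overlap in any of these 3 genes, and each was called within the run. Together with Tlr3, a receptor for double-stranded RNA that rose 1.44-fold (edgeR adjusted p = 0.0309), they made 4 higher genes of 20 tested in the Toll-like receptor and inflammasome list, and none was lower. This was 20% of the list, against 7.77% of all tested genes. Without animal Sample_936, and also within the run, 3 were higher. Interferon response and antigen presentation genes had 1 of 38 higher (2.63%) and none lower, and none was called without Sample_936 or within the run. The 21 microglial genes summed to between 221.1 and 245.4 CPM in controls, 216.7 and 265.1 CPM in the 2 cKO-/- animals within the run, and 294.0 to 409.7 CPM in the other cKO-/- animals. Tlr4 changed by 3.33 (log2) within the run.

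Genes that guide axons formed the list with the largest number of called members, 32.8% of those tested against 7.77% of all tested genes. Some shorter lists had larger shares, such as mineralised tissue genes (75%) and collagen genes (45.7%). Of 67 tested semaphorins, plexins, neuropilins, ephrins, Eph receptors, netrins, Slits and their receptors, 19 were called higher and 3 lower, with a median of 0.124. Without animal Sample_936 the counts were 14 and 2, and within the run 7 and 0. Sema3a (5:13396784-13603485), a secreted repellent of growing axons and a component of perineuronal nets, ranged from 28.9 to 42.2 CPM in controls, with a median of 34.7, and from 57.6 to 118 CPM in cKO-/- mice, with a median of 89.6. It rose 2.5-fold (log2 1.32, SE 0.157, edgeR adjusted p = 0.000249). Sema3e, another secreted semaphorin, rose 2.05-fold from between 16.5 and 30.3 CPM (median 22.2) to between 38.6 and 54.7 CPM (median 46.2). Among the receptors of ephrins, Epha5 rose 2.39-fold from between 9.59 and 18.3 CPM (median 13.9) to between 29.2 and 40.1 CPM (median 32.1). Ephb6, a member without kinase activity, rose 1.82-fold. None of these 4 genes overlapped, and all were called within the run.

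In the TGF-beta and BMP list, 11 of 52 tested genes were higher and 5 lower, with a median of 0.0814. This was 30.8% of the list, against 7.77% of all tested genes. Without animal Sample_936 6 were higher and 1 lower, and within the run 1 and 1. Ltbp2 (12:84783212-84876495), a matrix protein related to those that bind latent TGF-beta, was the called gene with the smallest p among the decreases. It ranged from 61 to 106 CPM in controls, with a median of 66.1, and from 6.9 to 17.8 CPM in cKO-/- mice, with a median of 12.3, a 5.95-fold decrease (log2 -2.57, SE 0.22, edgeR adjusted p = 1.17e-05). It overlaps D030025P21Rik. The ligand genes Bmp5 and Gdf11 rose 2.41- and 1.94-fold, and Tgfbi, a matrix gene induced by TGF-beta, rose 2.12-fold. In the Wnt list 6 of 43 genes were higher and 1 lower (16.3% called), without animal Sample_936 3 and 0, and within the run none. The ligand gene Wnt5a rose 1.88-fold, and Lgr6, a receptor for R-spondins, 2.75-fold. Of these genes, Bmp5 was called within the run (edgeR adjusted p = 0.0045), while Gdf11 (0.0619), Tgfbi (0.15), Wnt5a (0.112) and Lgr6 (0.0574) were not.

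Several neurotransmitter receptors with low levels in the control cerebellum were higher. In the list of monoamine and acetylcholine receptors 4 of 23 tested genes were called higher and none lower, 3 without animal Sample_936 and none within the run. With all animals 17.4% of the list was called, against 7.77% of all tested genes. Htr7, a serotonin receptor, rose 4.44-fold from between 0.69 and 1.25 CPM (median 0.989) to between 1.99 and 7.64 CPM (median 3.68). Chrm3, a muscarinic receptor, rose 5.6-fold with overlapping groups. Htr2c, a serotonin receptor abundant in choroid plexus, ranged from 0.635 to 1.38 CPM in controls, with a median of 1.11, and from 2.32 to 43.6 CPM in cKO-/- mice, with a median of 7.73. These 3 genes were not called within the run (edgeR adjusted p = 0.0951, 0.12 and 0.0623). Of the peptide receptors, Oxtr, the oxytocin receptor, rose 3.65-fold and was called within the run (edgeR adjusted p = 0.0449), with 1 control as high as 2.08 CPM against a lowest cKO-/- value of 1.69 CPM. Npy1r, a neuropeptide Y receptor, rose 3.01-fold, while the receptors Vipr2 and Gcgr, for vasoactive intestinal peptide and glucagon, fell 2.42- and 4.41-fold. Npy1r, Vipr2 and Gcgr were not called within the run (edgeR adjusted p = 0.365, 0.122 and 0.0844), where the change of Npy1r was 0.60 (log2). In total 5 of 16 neuropeptide and receptor genes were higher and 3 lower (50% called), without animal Sample_936 4 and 2, and within the run 1 and 1.

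For the main transmitters, 4 of 25 tested GABA genes and 2 of 25 glutamate receptor genes were called higher and none lower. These were 16% and 8% of the tested members, against 7.77% of all tested genes, so the glutamate share was near the background. Without animal Sample_936 the counts were 2 and 1, and within the run 0 and 1. The receptor subunits Gabra2 and Gabra3 rose 1.67- and 2.36-fold, and Gad2, which makes GABA, rose 1.41-fold (edgeR adjusted p = 0.0496). Grm5, a metabotropic glutamate receptor, rose 3.38-fold from between 4.07 and 9.14 CPM (median 7.61) to between 17.5 and 46.5 CPM (median 19.2), with animal Sample_1385 far above the others, and was called within the run (edgeR adjusted p = 0.03). Grm3 rose 1.46-fold. Grm3, Gad2, Gabra2 and Gabra3 were not called within the run, and Grm3 and Gad2 were also not called without animal Sample_936 (edgeR adjusted p = 0.0824 and 0.0541). The transporter Slc17a6, which loads glutamate into vesicles, ranged from 0.227 to 9.54 CPM in controls and up to 120 CPM in cKO-/- mice, with a median of 21.5 CPM, and it was not called without animal Sample_936 (edgeR adjusted p = 0.0733). Of 44 tested genes of the synaptic vesicle 2 were higher (4.55%), Slc17a6 among them, and none was lower, and 1 was higher without Sample_936 and within the run.

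Of 64 tested potassium channel genes 4 were called higher and 4 lower with all animals, 5 and 3 without animal Sample_936, and 0 and 1 within the run. With all animals 12.5% of the list was called, against 7.77% of all tested genes. Kcnq5, a subunit of the M-current channel, rose 3.86-fold, at levels below 3 CPM in every control. Kcnu1, a large-conductance channel of sperm, rose 2.76-fold from at most 0.796 CPM in controls, so that the filter fixed its direction. Kcnj10, the main potassium channel of astrocytes, rose 1.62-fold. None of these 3 was called within the run (edgeR adjusted p = 0.0758, 0.0844 and 0.276). Kcnh3 (15:99224976-99242817), a voltage-gated channel of the ether-a-go-go family, ranged from 4.28 to 7.27 CPM in controls, with a median of 4.98, and from 0.604 to 2.43 CPM in cKO-/- mice, with a median of 1.11. It fell 4.56-fold (log2 -2.19, SE 0.231, edgeR adjusted p = 8.83e-05), was also called within the run, and overlaps Mcrs1. Of the sodium, calcium and HCN channels 3 of 36 were higher and none lower, and none was called without animal Sample_936 or within the run. Their share of 8.33% was near that of all tested genes.

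The steepest decrease was in Myo15 (11:60469339-60528368), which encodes an unconventional myosin of inner ear hair cell stereocilia. It ranged from 5.2 to 17.1 CPM in controls, with a median of 10.3, and from 0.169 to 1.07 CPM in cKO-/- mice, with a median of 0.401. The fitted change was -4.45 on the log2 scale (21.9-fold lower, SE 0.398, edgeR adjusted p = 1.79e-05). Ush1g, a scaffold protein of the same structures, fell 4.66-fold from between 1.55 and 3.03 CPM (median 1.81) to between 0.169 and 1.05 CPM (median 0.382). They were the 2 lower genes among 18 tested of the stereocilia and deafness list, in which 1 was higher and the median was 0.155, and within the run 2 were higher and 2 lower. With all animals 16.7% of the list was called, against 7.77% of all tested genes. Other decreases were in Entpd2, an enzyme that hydrolyses extracellular ATP (2.91-fold), Mamstr, a coactivator of muscle genes (2.73-fold), Gsg1l, a subunit of AMPA receptors (2.07-fold), Kirrel2, a cell adhesion protein (2.59-fold), Sp6, a transcription factor of tooth and skin (2.86-fold), Hif3a, a factor of the hypoxia pathway (3.59-fold), and Rnf39 (3.09-fold). Cdc20, an activator of the anaphase-promoting complex, fell 2.74-fold, at levels of 2.35 to 3.66 CPM in controls and 0.913 to 1.25 CPM in cKO-/- mice, and it overlaps Elovl1. Except for Rnf39 (edgeR adjusted p = 0.0587), each of the decreases in this paragraph was called within the run.

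Lipid genes moved in separate directions. Of 24 tested genes of lipid droplets and fatty acid metabolism 5 were called lower and 1 higher, 4 and 0 without animal Sample_936, and 3 and 0 within the run. With all animals 25% of the list was called, against 7.77% of all tested genes. Plin4, which coats lipid droplets, fell 4.01-fold from between 4.89 and 12.3 CPM (median 6.66) to between 1.3 and 2.66 CPM (median 1.79). Ucp2, a mitochondrial carrier, fell 2.18-fold and Plin3 1.69-fold, and all 3 were called within the run. Of 24 tested genes of cholesterol synthesis 6 were called higher and 1 lower (29.2%), with a median of 0.167. Hmgcs1, which feeds the pathway, rose 1.41-fold from between 129 and 175 CPM (median 143) to between 178 and 231 CPM (median 207). Sqle, Cyp51 and Msmo1 rose 1.41-, 1.36- and 1.44-fold. Of the cholesterol genes 5 were higher and none lower without animal Sample_936, and none was called within the run, where these 4 changed by 0.31, 0.33, 0.28 and 0.31 (log2).

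Circadian clock genes were called in 1 direction, with 4 of 23 lower, none higher and a median of -0.12. This was 17.4% of the list, against 7.77% of all tested genes. Per3, a period gene, ranged from 56.3 to 102 CPM in controls, with a median of 64.3, and from 36.1 to 54.1 CPM in cKO-/- mice, with a median of 43.6, and fell 1.53-fold (edgeR adjusted p = 0.0217). Ciart, a repressor of the clock, fell 1.55-fold and Tef, an output factor, 1.35-fold. Without animal Sample_936 the list had 2 lower genes, Per3 among them but neither Ciart nor Tef, and within the run none. The immediate early genes Fos and Fosb were 2.76- and 2.98-fold higher with overlapping groups (edgeR adjusted p = 0.0275 and 0.0355), the 2 higher genes among 22 tested of that list, in which 4 were higher without animal Sample_936 and none was called within the run. With all animals the share of 9.09% was near that of all tested genes.

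Called genes made up 2.5% of tested POGZ partners and heterochromatin proteins, 3.17% of autism and intellectual disability risk genes and 4.49% of zinc finger genes. They made up 28.6% of germline and meiosis genes and 13.9% of imprinted genes, against 7.77% of all tested genes. Of 40 tested partners of POGZ and heterochromatin proteins 1 was higher, Adnp2, a relative of ADNP that rose 1.29-fold (edgeR adjusted p = 0.0417), and none was lower, and none was called without animal Sample_936 or within the run. Of 63 tested risk genes for autism and intellectual disability 2 were higher and none was lower, 1 without animal Sample_936 and none within the run. Among 312 zinc finger genes of the KRAB-type and other Zfp list 9 were higher and 5 lower, with a median of -0.0889, without animal Sample_936 3 and 2, and within the run 1 and 0. Zfp941 rose 1.93-fold from between 13.1 and 17.3 CPM (median 14.5) to between 24.3 and 31.2 CPM (median 29.4). Of 14 tested germline and meiosis genes 3 were higher and 1 lower, without animal Sample_936 3 and 0, and within the run 2 and 0. Rnf17, a Tudor domain protein of spermatids, rose 4.62-fold from between 0.794 and 2.14 CPM (median 1.16) to between 3.94 and 8.82 CPM (median 5.78). Snrpn, an imprinted gene for a small nuclear ribonucleoprotein, rose 3.7-fold and was 1 of 2 higher and 3 lower genes among 36 tested imprinted genes, of which 2 were higher and 2 lower without animal Sample_936 and 2 and 1 within the run. These 3 genes did not overlap and were called within the run.

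Several lists of general cell functions had shares of called genes at or below the background of 7.77%. Of oxidative phosphorylation genes 1 of 78 was higher and 1 lower, and none was called within the run. Of cytosolic ribosomal protein genes 1 of 77 was higher, Rps4l, a relative of an X-linked gene, which rose 2.55-fold, and none was lower. None of 77 mitochondrial ribosomal protein genes was called. Of 65 RNA splicing genes 1 was called, lower, although 64 had a fitted change below 0, with a median of -0.198, and control Sample_1129 had the highest sum of this list, 11520 CPM against 7566 to 8748 CPM in the other controls. The splicing gene was not called without animal Sample_936 or within the run. DNA repair genes had 1 higher and 4 lower of 68, without animal Sample_936 1 and 1, and within the run none. The unfolded protein and heat shock list had 1 lower of 27, and none without Sample_936 or within the run. Mitosis and replication genes stood above the background, with 1 higher and 4 lower of 34, without animal Sample_936 1 and 2, and within the run 0 and 1.

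**Figure D1:**
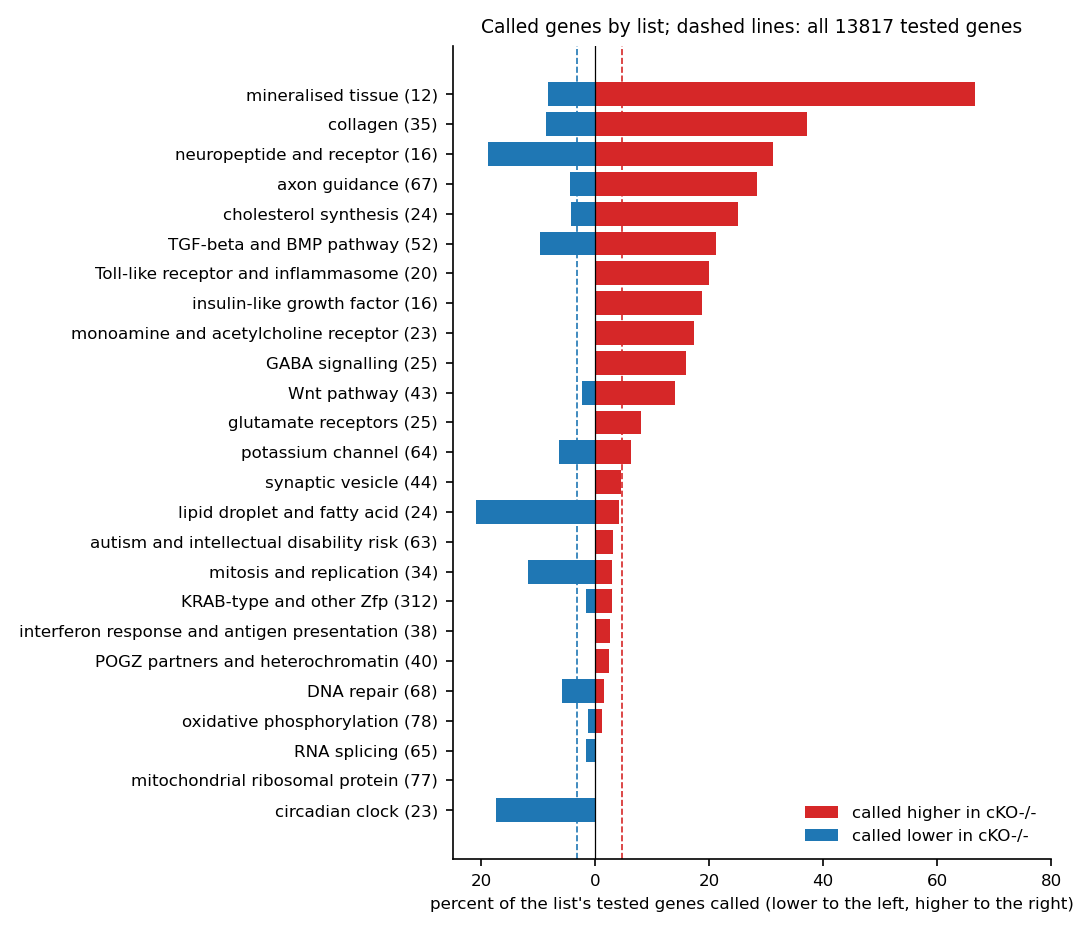
Percent of the tested genes of each list called higher (red, to the right) or lower (blue, to the left) in cKO-/- mice, with the number tested in parentheses. Dashed lines mark 4.63% higher and 3.14% lower over all 13817 tested genes. The mineralised tissue list, with 8 of 12 higher, stands at the top, and circadian clock genes, with 4 of 23 lower, have no bar to the right.

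Cell type markers differed between the cKO-/- animals within and outside the run. Granule cell genes summed to between 10130 and 11050 CPM in controls and to 11900 and 11330 CPM in the 2 cKO-/- animals within the run, while animals Sample_936, Sample_1371, Sample_1379 and Sample_1385 had 9545, 6865, 8053 and 5852 CPM. With all animals 1 of 20 granule cell genes was called (5%, against 7.77% of all tested genes), Barhl1, a transcription factor of granule neurons that fell 1.49-fold and was not called within the run (edgeR adjusted p = 0.0754). Gabra6, a GABA receptor subunit made by granule cells, ranged from 903 to 1044 CPM in controls and from 496 to 1017 CPM in cKO-/- mice and was not called (edgeR adjusted p = 0.167), and neither was Fat2, a protocadherin of the same cells. With only the 4 animals outside the run 13 of the 20 were lower, with a median of -0.46, and within the run none was, with a median of 0.104. Of 20 Purkinje cell genes 1 was called (5%), the glutamate transporter Slc1a6, which rose 1.35-fold and was not called within the run (edgeR adjusted p = 0.444), and all 20 had a fitted change above 0, with a median of 0.146. Of 18 inhibitory interneuron genes 2 were higher with all animals (11.1%), none without Sample_936 or within the run, and 9 with only the animals outside the run.

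All called markers of glia were higher. Called genes made up 25% of astrocyte and Bergmann glia genes, 28.6% of oligodendrocyte and myelin genes and 19% of microglia genes, against 7.77% of all tested genes. Of 24 astrocyte and Bergmann glia genes 6 were called higher and none lower, 5 without animal Sample_936 and 2 within the run, where the median was -0.149. Aqp4, the water channel of astrocytes, ranged from 410 to 513 CPM in controls, with a median of 465, and from 664 to 760 CPM in cKO-/- mice, with a median of 744. It rose 1.58-fold (edgeR adjusted p = 0.000186) and was called within the run, as was Gfap, an intermediate filament of reactive astrocytes, which rose 2.04-fold from between 128 and 152 CPM (median 136) to between 215 and 370 CPM (median 268). Fabp7, a fatty acid binding protein of Bergmann glia, and Hopx rose 1.97- and 1.5-fold and were not called within the run (edgeR adjusted p = 0.428 and 0.0844). Of 28 oligodendrocyte and myelin genes 8 were higher, among them Ermn (1.57-fold), Opalin (2.03-fold) and Aspa (1.53-fold), and all 28 had a fitted change above 0, with a median of 0.432. Mbp, which encodes myelin basic protein and is among the most abundant, was not called (edgeR adjusted p = 0.117). Without animal Sample_936, whose myelin sum of 12820 CPM was the highest, 4 were higher, and within the run 1 was, with a median of 0.125. Of 21 microglia genes 4 were higher, including Cx3cr1 (1.42-fold) and P2ry12 (1.45-fold), and none was called without animal Sample_936 or within the run.

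Markers of vessels, meninges and choroid plexus come from cells outside the neural lineage or at its border. Called genes made up 15% of endothelium, 8.33% of mural cell and 45.5% of meningeal fibroblast genes. They made up 33.3% of choroid plexus and 14.3% of midbrain and monoamine neuron genes, against 7.77% of all tested genes. Endothelium genes had 3 lower of 20 and none higher, 2 lower without animal Sample_936 and 1 within the run. Plvap, a protein of the diaphragms of fenestrated vessels, fell 1.82-fold from between 19.8 and 26.3 CPM (median 21.1) to between 8.47 and 14.1 CPM (median 12.4), also within the run. Slc2a1, the glucose transporter of the blood-brain barrier, fell 1.34-fold, and Ly6c1 1.51-fold, both with overlapping groups, and Ly6c1 was not called without animal Sample_936 (edgeR adjusted p = 0.0621). Of 12 mural cell genes 1 was lower, Des, which fell 1.9-fold. Within the run Slc2a1, Ly6c1 and Des were not called (edgeR adjusted p = 0.217, 0.384 and 0.386). Meningeal fibroblast genes had 10 higher of 22 and a median of 0.666, and 6 higher without animal Sample_936. They summed to between 1253 and 1800 CPM in controls, 1261 and 1603 CPM in the 2 cKO-/- animals within the run and 2557 to 3312 CPM in the others. With only the animals outside the run 20 of the 22 were higher, and within the run 1 was, with a median of -0.0197. Of 9 tested choroid plexus genes 3 were higher, also without animal Sample_936, and within the run 1 was. Ttr, which encodes transthyretin, was at 2817 CPM in animal Sample_936, at most 1.14 CPM in controls and at a median of 15.5 CPM in cKO-/- mice. Prlr, the prolactin receptor, was at most 0.689 CPM in controls, so that the filter fixed its direction and lack of overlap. It was also called within the run (edgeR adjusted p = 0.0312), and Kl overlapped between the groups. Of 7 midbrain and monoamine neuron genes 1 was higher, Tph2, which makes serotonin and was below 3 CPM in every library. In that list 2 were higher without animal Sample_936, and within the run none was higher and 1 was lower. The part of tissue makeup in the differences of other lists was not tested gene by gene. With scores for choroid plexus, midbrain and hindbrain as covariates 126 genes were called, 124 of them among the 1074, and with a granule cell score, an alternative chosen after seeing the data, 283 were called, 266 of them among the 1074.

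**Figure D2:**
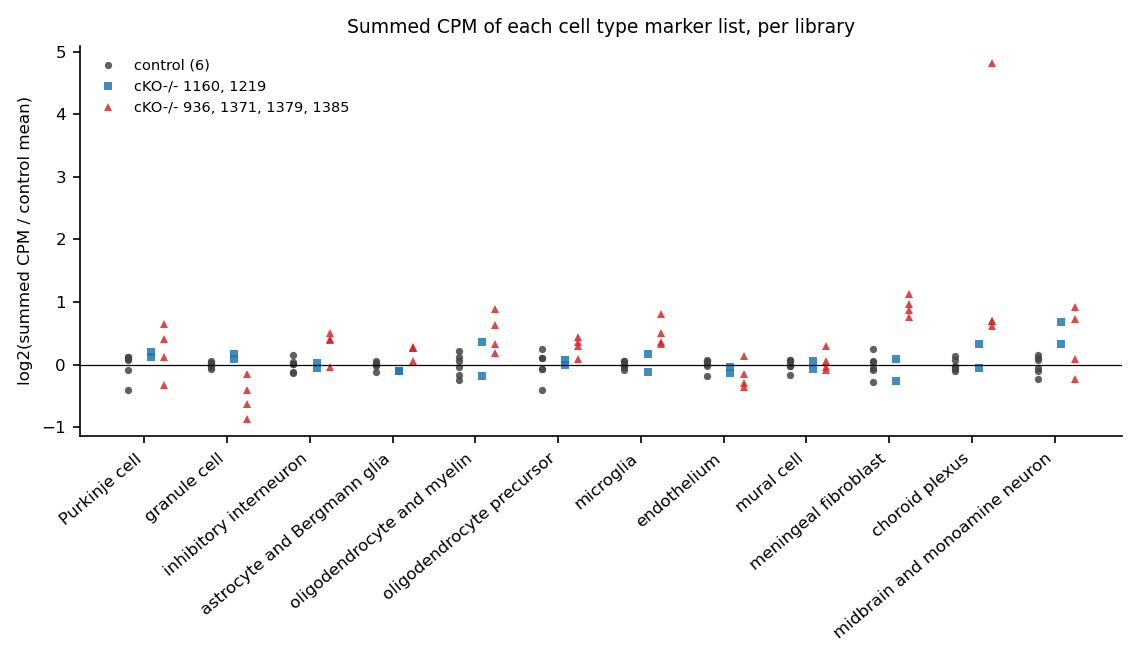
Summed CPM of each cell type marker list in each library, as log2 of its ratio to the control mean. Circles are the 6 controls, squares the 2 cKO-/- animals within the run (Sample_1160 and Sample_1219) and triangles the other 4 cKO-/- animals. The choroid plexus sum of animal Sample_936, 4694 CPM, lies far above all others, and the triangles lie below the squares for granule cells and above them for meningeal fibroblasts.

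Calls were also counted by the length of the gene, as a description with no test, in quartiles of its span in the genome. In the quartile of the longest genes, with spans of 58258 bases or more, 8.75% were called higher and 1.56% lower, and in the quartile of the shortest 2.87% were higher and 4.89% lower. Within the run the figures were 1.36% and 0.232% for the longest genes and 0.319% and 0.579% for the shortest. On the X chromosome, which holds Gm364, Amelx and Dach2, 42 of 479 tested genes were higher (8.77%) and 5 were lower (1.04%), against 4.63% and 3.14% of all tested genes. The X was not alone in this, with 7.59% and 2.02% on chromosome 1 and 7.16% and 2.69% on chromosome 3. Chromosomes 4, 7, 11, 15 and 17 held more lower than higher genes. By quartile of mean CPM, from the lowest to the highest, 11.6%, 9.55%, 6.17% and 3.73% of the genes were called.

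A core of genes was called in the same direction under each of 17 settings, which were the leaving out of each of the 12 animals, DESeq2, the fit within the run, a covariate for the animals outside the run, and the tissue scores and granule cell score above. It held 87 genes, 58 higher and 29 lower, of which 67 changed at least 2-fold. Their median absolute change was 1.56 (log2), against 0.618 for the other called genes. Passing every fit of the same data favours large changes, so this difference follows at least in part from the selection.

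The effect was not detectably different between the sexes. No gene was called for an interaction of sex and genotype (0%, 0 of 13817) by edgeR, with 210 genes at an unadjusted p below 0.05, and DESeq2 also called 0. With 3 animals of each sex and genotype, small differences between the sexes could not be seen.

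The cKO-/- effect differed between cerebellum and hippocampus for 150 of 13384 genes tested in both (1.12%). Both tissues came from the same animals, and with the animal as a block 227 genes (1.7%) were called, 125 of them shared. The study states that it excluded 1 outlier RNA sample without naming it, and the hippocampal library of Sample_1160, taken to be that sample, was not used. In 122 of the 150 genes the change was larger in size in the cerebellum, and in 93 the fitted changes had opposite signs. The same counts over all 13384 genes were not taken. Cpne4, a calcium-dependent membrane binding protein, rose 6.83-fold in the cerebellum, from between 0.897 and 2.66 CPM (median 1.38) to between 6.61 and 16.5 CPM (median 10.2), and had a fitted change of 0.00 (log2) in the hippocampus (edgeR adjusted p of the difference = 2.97e-05). Npnt, a matrix ligand of integrins, rose 2.59-fold in the cerebellum and fell in the hippocampus, by 0.62 on the log2 scale. Kcnh3 fell by 2.19 on the log2 scale in the cerebellum and had a change of -0.17 in the hippocampus. Sema3a rose by 1.32 in the cerebellum and had a change of -0.38 in the hippocampus, and Tlr4 rose in both tissues, by 0.89 in the hippocampus, with a difference of 2.12 (edgeR adjusted p = 0.00129 for each difference). Of 990 called cerebellar genes that were tested in both tissues, 113 were called different, and 168 were also called in the hippocampus, 160 of them in the same direction. Over all genes tested in the hippocampus, 627 of 14161 were called. Gm364, Akr1c13, Dach2, Casp1, Rnf17, Zfp941, Snrpn, Plin4 and Hif3a were called in both tissues in the same direction, and their difference was not called, except that of Dach2 with the animal as a block (edgeR adjusted p = 0.0369).

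**Figure D3:**
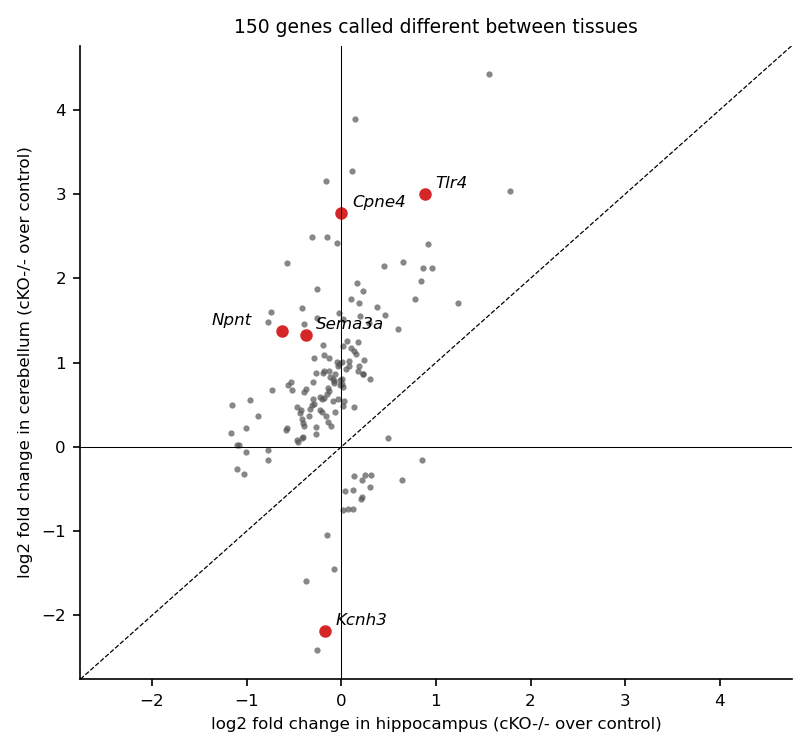
Change in the cerebellum (vertical axis) against the change in the hippocampus (horizontal axis), both as log2 of cKO-/- over control, for the 150 genes called different between the tissues. The dashed line marks equal changes, and each point is 1 gene. Cpne4, at 2.77 in the cerebellum and 0.00 in the hippocampus, and Kcnh3, at -2.19 and -0.17, lie near the vertical axis.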

How the data were processed

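Poly(A) RNA of each mouse's cerebellum was sequenced as 43 bp paired-end reads, and the authors aligned the reads and counted them per gene with STAR 250a, per the submitters' processing notes. They deposited the counts as raw whole numbers per gene, not normalized. The methods name mm9, while 97.9% of 13212 genes matched by symbol have a start or end within 1000 bases of that in GRCm38.p6, so GRCm38 is used for coordinates. The annotation release and the use of strand are not given in the sources used here, and genes that overlap on opposite strands are uncertain.

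Groups and animals were taken from the sample labels. CPM values with TMM factors and the tests were computed with edgeR 4.0.16 in R 4.3.3 (quasi-likelihood F-test, earlier form, with terms for sex and genotype), Benjamini-Hochberg adjustment over all tested genes and an FDR of 0.05. Genes needed more than 1 CPM in at least 6 of the 12 libraries. Interaction terms tested sex and tissue. DESeq2 1.42.0 was an alternative. Replicates are separate animals. Pearson correlations of log2 CPM within a group were between 0.9722 and 0.994.

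The named genes are Pogz, the 12 higher and 12 lower called genes with the smallest adjusted p and no overlap between groups, up to 4 members of each gene list with the smallest p and its 2 most abundant members, and the 3 genes with the smallest p of each interaction, and others are marked. Some genes that this rule names are not reported here. The comparison, the gene lists and the alternatives were chosen with earlier results of these data known. Lists are described by counts and medians, with no set test. On simulated counts for the 13817 genes of this comparison, edgeR called 67 of 100 genes changed 1.5-fold and 93 of 100 changed 2-fold, and 8 of 13617 unchanged genes. The simulation gave all libraries of a group the same mean per gene. It therefore does not cover errors from the differences among the cKO-/- animals. Same-numbered libraries of the tissues come from 1 animal, and their deviations from the group means had a median correlation of 0.224 over 11 animals (from -0.0839 to 0.462, 9 above 0.1). At 21421850 to 30812192 counts per library, 1 CPM rests on few counts, and intervals cover counting error only.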

Additional observations from a re-analysis of the deposited data

Results flagged for a closer look

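In 246 groups of 6 libraries, 1 library stood far from the other 5 in 21 by Dixon's test, and chance flags about 5% of groups. Animal Sample_936 of the cKO-/- group stood apart in genes and lists of tissue next to the cerebellum, with Ttr at 2817 CPM, Prlr at 23.4 CPM, Kl at 89.2 CPM, and sums of 4694 CPM for choroid plexus, 24.6 CPM for hindbrain Hox genes and 304.5 CPM for mural cells. Control Sample_1129 stood apart with Pogz at 130 CPM, Comp at 7.58 CPM, Des at 13.9 CPM, Per3 at 102 CPM, Ciart at 20.5 CPM and an endothelium sum of 639.3 CPM. Without it the change of Pogz was -0.49. Animal Sample_1385 of the cKO-/- group had Grm5 at 46.5 CPM, Snrpn at 6.87 CPM and Des at 2.43 CPM, and animal Sample_1371 had Barhl1 at 9.80 CPM. Of the remaining controls, Sample_1155 had Cyp51 at 73.3 CPM and its only read of Gm364, 0.0345 CPM, Sample_1190 had Gdf11 at 9.27 CPM, and Sample_1192 had Col1a2 at 48.7 CPM and a blood sum of 10.6 CPM.

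The change of 24 named genes differed between cerebellum and hippocampus, by edgeR's test of the difference. The cerebellar change minus the hippocampal one (log2) was positive for genes of the matrix and of bone, with 0.49 for Dmp1, 1.53 for Fbln7, 1.07 for Col4a6 and 2.001 for Npnt, and for Tlr4 (2.12). Genes of axon guidance and growth factor signalling followed, with 1.71 for Sema3a, 1.20 for Epha5, 0.64 for Ephb6, 0.77 for Gdf11 and 1.86 for Lgr6. Among receptors it was 1.66 for Grm5, 1.70 for Htr7, 2.64 for Chrm3, 2.12 for Oxtr and 1.62 for Npy1r. It was 1.79 for Kcnq5, 1.17 for Kcnu1, 0.79 for Gfap, 2.77 for Cpne4, 1.27 for Gm4371 and 1.27 for Tmem196. It was negative for Kcnh3 (-1.97), Mamstr (-1.37) and Gsg1l (-0.89). With the animal as a block the differences of Fbln7 (edgeR adjusted p = 0.0647), Oxtr (0.0661) and Htr7 (0.052) were not called.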

How the results depend on the processing

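The number of genes called in the cerebellum was 1074, and it moved with the setting. Leaving out each animal in turn gave 491 (without control Sample_1172) to 1751 genes (without cKO-/- Sample_1160), and leaving out control Sample_1129 or Sample_1190 or cKO-/- Sample_936, Sample_1371 or Sample_1385 gave 603, 517, 603, 560 and 507. DESeq2 called 1916 (1061 higher, 855 lower, 1071 shared), and all 18 cerebellar libraries, heterozygotes included, gave 1731. A covariate for the animals outside the run of control numbers gave 146 genes, only animals Sample_1160 and Sample_1219 as the cKO-/- group gave 143 and only the other 4 animals 2432. Scores of choroid plexus, midbrain and hindbrain gave 126, and the granule cell score, chosen after seeing the data, gave 283. These fits hold fewer samples or more covariates than the fit reported. Using RLE size factors (1076), all genes whatever their count (1417), the bias-adjusted fit (1098), robust dispersions (1066), no sex term (1321) and thinning to the smallest library (1030) gave counts within 1.5 times the reported one. Higher genes made up 59.6% of the calls, and over the alternatives from 52.5% (without control Sample_1170) to 68.9% (without control Sample_1190), with 53.7% in all 18 libraries and 55.4% with DESeq2.

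Pogz lost its call with the covariate (-0.43, edgeR adjusted p = 0.248), within the run (-0.43, 0.27) and with the tissue scores (-0.48, 0.141), and leaving out each animal gave -0.64 to -0.49 (adjusted p from 0.00407 to 0.0132). Genes with a sex by genotype interaction numbered 0, and 0 to 1 when each animal was left out (1 without cKO-/- Sample_1219). Genes with a tissue by genotype interaction numbered 150, and 85 (without control Sample_1190) to 326 (without cKO-/- Sample_1160) when each animal was left out. With the animal as a replicate block they numbered 227, and with the hippocampal library of animal Sample_1160 they numbered 90. Over the 107 named genes and up to 25 fits each, 2359 values kept direction and call, 302 lost the call, 5 gained it and 4 reversed. The reversed values were those of Gabra6, 0.044 with the covariate and 0.045 within the run, and Fat2, 0.15 and 0.14, neither of them called in any of the 4. The cause of these changes was not tested.

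What the animal numbers stand for is not given in the sources used here, and the group of animals outside the run holds no control, so a batch and the genotype cannot be told apart for them. Low genes rest on few counts, and their decreases are harder to see than their increases.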

Other observations

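In further lists with few tested genes, all called genes were higher. Called genes made up 26.7% of serpins, 60% of aldo-keto reductases and 50% of glycine signalling genes. They made up 14.3% of perineuronal net genes and 16.7% of oligodendrocyte precursor genes, against 7.77% of all tested genes. Of 15 tested serpins, inhibitors of serine proteases, 4 were higher and none lower, and their 62 listed genes summed to between 426.3 and 501.8 CPM in controls and between 512.9 and 715.5 CPM in cKO-/- mice, without overlap. The lowest cKO-/- sum, that of Sample_1160, included 17 CPM of Serpinb2, and without this gene the groups overlapped. Of 5 tested aldo-keto reductases of the Akr1b and Akr1c families 3 were higher, and the sums did not overlap either, at 17.45 to 23.94 CPM in controls and 25.14 to 38.32 CPM in cKO-/- mice. Akr1c13 gave 2.05 and 2.33 CPM of the sums of Sample_1160 and Sample_1219, and without it these sums overlapped with those of controls. Of 4 tested genes of glycine signalling 2 were higher, and of 14 tested genes of the perineuronal net and lecticans, the matrix around inhibitory neurons, 2 were higher. Of 12 oligodendrocyte precursor genes 2 were higher. None of these lists had a lower gene. Without animal Sample_936 the counts of higher genes were 3 serpins, 3 aldo-keto reductases, 0 glycine signalling genes, 1 perineuronal net gene and 1 precursor gene, and for Sample_1160 and Sample_1219 alone against the controls they were 2, 1, 0, 0 and 0. Of 3 tested Pax and Hox genes, 3 forebrain genes and 1 blood gene none was called.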
